A study of Mus musculus with 20 samples.

Results

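Growth hormone reaches the liver from the pituitary and binds its receptor, encoded by Ghr. The genes followed here are Ghr, Stat5b, Socs2, Cish, Igf1, Igfals and the major urinary protein genes Mup1, Mup3, Mup20 and Mup21, taken as the rows of the liver count table that carry these names. They are 10 of the 48440 genes in the table, and all 10 had enough counts to be tested, as did 16071 genes in all. The livers came from wild-type female C57BL/6 mice (C57BL/6J in the methods of the study) that were 8 weeks old at the start and were treated for 5 weeks. There were 4 groups of 5 mice. Control antibody was combined with either drinking water (Isotype + Vehicle and Isotype + CORT), and so was the test antibody (αACBP + Vehicle and αACBP + CORT). CORT is corticosterone given in the drinking water, a model of Cushing's syndrome, and vehicle is the ethanol in water that the other mice drank. αACBP is a monoclonal antibody that neutralizes the extracellular protein ACBP/DBI, and Isotype is an IgG2a control antibody, so that every mouse of all groups received an antibody. All mice were female, the hormone was supplied from outside, and neither growth hormone nor its pulses were measured. RNA of bulk liver tissue was sequenced. A lower amount of RNA in each cell could therefore not be told apart from fewer cells of a type.

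Binding of growth hormone to its receptor activates the kinase JAK2, which phosphorylates the transcription factor STAT5B. STAT5B then switches on Igf1, which encodes the main circulating growth factor made by the liver, and Igfals, which encodes the acid-labile subunit that holds this factor in the blood. It also switches on Socs2 and Cish, which encode inhibitors that turn the signal off again and whose transcripts follow recent pulses of the hormone. The major urinary proteins are lipocalins that the liver secretes and that carry pheromones in urine. They depend on growth hormone and are made in larger amounts by male than by female mice. MUP20, also called darcin, is the male pheromone carrier of this family. Glucocorticoids act on the same axis at several levels, in the pituitary and in the liver.

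The Mup genes lie side by side on chromosome 4 and are copies of each other, which sets how well their counts can be told apart. The canonical coding sequences of Mup18, Mup20, Mup21 and Mup3 were 98.9%, 90.4%, 83.9% and 81.4% identical to that of Mup1 over the aligned bases. A stretch of 60 bases inside 1 coding exon of each gene is shown here because it holds bases by which reads of Mup1, Mup20 and Mup3 differ. It was chosen as the stretch without gaps where the least different of Mup3, Mup20 and Mup21 differed most from Mup1. Over the whole coding sequence these copies differ less from Mup1, as the identities above show. Positions are those of GRCm39, all genes lie on the minus strand, and capitals mark bases that differ from Mup1. The stretch lies at chr4:60457297-60457356 in Mup1, chr4:61591708-61591767 in Mup18, chr4:61971733-61971792 in Mup20, chr4:62005053-62005112 in Mup3 and chr4:62068448-62068507 in Mup21.
Mup1: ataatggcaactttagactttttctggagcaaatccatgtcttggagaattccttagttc
Mup18: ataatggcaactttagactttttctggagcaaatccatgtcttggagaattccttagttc
Mup20: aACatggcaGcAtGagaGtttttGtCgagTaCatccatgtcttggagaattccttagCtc
Mup3: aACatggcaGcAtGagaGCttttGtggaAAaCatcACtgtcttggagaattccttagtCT
Mup21: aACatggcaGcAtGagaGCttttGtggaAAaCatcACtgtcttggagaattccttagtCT
Mup1 and Mup18 had 0 differences in this stretch, Mup20 had 11, and Mup3 and Mup21 had 15 each. Mup3 and Mup21 were identical over these bases, which cannot tell them apart. The reads were 150 bases long. Of all 150-base words of the canonical transcript, 68.6% of those of Mup1 and 55.6% of those of Mup20 occurred in another gene as well, but 0% of those of Mup3 and Mup21. The words of Mup1 were shared with 14 other Mup genes. Those of Mup20 were shared with the pseudogene Mup-ps19, which had between 0 and 27 counts in a liver, and with Gm70526, which has no row in the table. Counts of Mup3 and Mup21 can therefore be assigned to 1 gene, counts of Mup20 only in part, and counts of Mup1 and Mup18 only with doubt.

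STAT5B binds DNA at the motif TTCNNNGAA, and RefSeq promoters (250 bases before to 50 after the start, GRCm38.p6) were searched for it. The motif reads the same on both strands. It occurred in 8.30% of all 32851 promoters. Entries were found for 7 of the 10 members, and Socs2, Mup1 and Mup20 had none. Cish held 2 matches side by side, the first beginning 0 bases and the second 11 bases downstream of the start. The last 100 bases before its start and the first 20 from it, at chr9:107296559-107296678 of GRCm38.p6 on the plus strand, are shown with the matches in capitals, since Cish is a member whose level differed between groups.
Cish: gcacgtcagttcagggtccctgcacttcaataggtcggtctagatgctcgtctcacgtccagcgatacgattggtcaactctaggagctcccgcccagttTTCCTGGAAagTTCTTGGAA
Of the 3 listed promoters of Igfals, 1 held a match that began 236 bases and another a match that began 58 bases before the start. No match was found in the listed windows of Ghr, Igf1, Stat5b, Mup3 and Mup21.

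A liver had between 14934926 and 20299999 counts that fell on genes. At this depth 3 counts correspond to at most 0.205 CPM (counts divided by TMM-normalized library size and scaled in the usual way), and this floor covers counting error only. Liver 5 of the αACBP + Vehicle group stood apart, with a TMM factor of 1.29 and the lowest median correlation with its own group (r = 0.873, against 0.892 to 0.952 for the other livers). The defining hepatocyte genes were present in every liver, summed to between 40700 and 147000 CPM over 8 markers, and markers of adipocytes and pancreas lay at or near 0.

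Few members differed between groups. With CORT under isotype, 1 of the 10 members rose (Mup20) and 0 fell, where 1.34% of all genes tested rose and 1.86% fell at an adjusted p of 0.05 or less (edgeR's quasi-likelihood test, Benjamini-Hochberg over all 16071 genes). With αACBP in mice without CORT, 1 member rose (Cish) and 1 fell (Ghr), where 2.78% of all genes rose and 2.36% fell. With αACBP under CORT, 0 members passed, where 0.635% of all genes rose and 0.324% fell. With CORT under αACBP, 0 members passed, where 0.212% of all genes rose and 0.0933% fell. Between αACBP + CORT and Isotype + Vehicle, 0 members passed, where 0.0809% of genes did, and 0 passed the test of the interaction of both treatments, where 0.143% did. At an unadjusted p of 0.05 or less, 3 members passed with CORT under isotype, where 15.6% of all genes did, and 4 with αACBP without CORT, where 20.6% did. At this cut 2 members passed with αACBP under CORT, 3 with CORT under αACBP, 2 between αACBP + CORT and Isotype + Vehicle and 2 in the interaction, where 12.5%, 12.7%, 7.59% and 10.6% of all genes did. DESeq2's Wald test called more genes throughout. It called 2 members among 949 genes with CORT under isotype, 3 among 1585 with αACBP without CORT, 1 among 430 with αACBP under CORT and 2 among 306 with CORT under αACBP. Between αACBP + CORT and Isotype + Vehicle it called 1 member among 128 genes, and in the interaction 0 among 240. The background itself rested on single livers. With 1 liver left out, edgeR's test called 270 to 650 genes with CORT under isotype in place of 514, 183 to 1315 with αACBP without CORT in place of 826, 61 to 316 with αACBP under CORT in place of 154 and 5 to 260 with CORT under αACBP in place of 49. The split of all called genes depended on the scaling. With library totals without the Mup genes in place of TMM, 129 genes rose and 330 fell with CORT under isotype, against 215 and 299, and 686 rose and 288 fell with αACBP without CORT, against 447 and 379. The comparisons share groups of livers, and their values are given side by side and not as independent results.

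**Figure D1:**
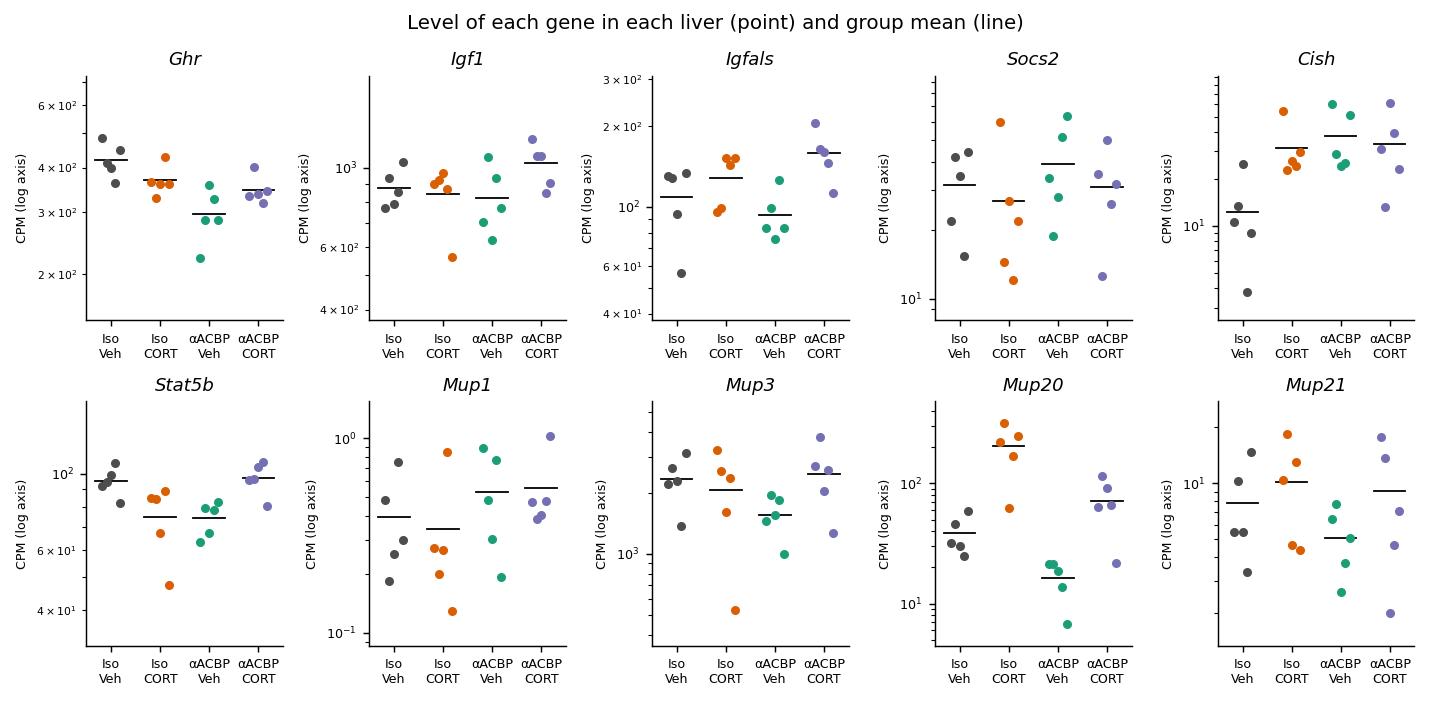
Level of the 10 genes in each of the 20 livers in CPM on log axes, with 1 point for each liver and a line at the mean of each group of 5. Mup20 lies above the Isotype + Vehicle livers in every Isotype + CORT liver, and Ghr lies below them in every αACBP + Vehicle liver. The groups of Stat5b, Cish, Igfals, Igf1, Socs2, Mup1, Mup3 and Mup21 overlap.

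Ghr, the gene of the growth hormone receptor (chr15:3347235-3613024, minus strand, GRCm39), was lower with αACBP in mice without CORT. Its level was 485, 411, 398, 362 and 447 CPM in livers 1 to 5 of the Isotype + Vehicle group. It was 222, 285, 357, 326 and 285 CPM in the αACBP + Vehicle group. Every liver of the antibody group lay below every liver of the control group, although the gap between 357 and 362 CPM was small. The means were 295 ± 51.0 and 421 ± 47.1 CPM (SD, n = 5 each), or -0.51 on the log2 scale with a standard error of 0.15 (edgeR's adjusted p = 0.0444). The call stood close to the threshold. Over 8 other settings the adjusted p lay between 0.00355 and 0.0954, and 3 of them called it. It was lost without livers 1, 2, 3 or 5 of the Isotype + Vehicle group and without livers 1, 2 or 5 of the αACBP + Vehicle group, at an adjusted p of up to 0.145. Without liver 5 of the αACBP + Vehicle group, which stood apart, it was -0.51 (adjusted p = 0.0734). With CORT, Ghr was at 368 ± 36.7 CPM under isotype and at 346 ± 32.8 CPM under αACBP (SD, n = 5 each), and these livers ranged from 317 to 428 CPM. CORT itself gave a log2 fold change of -0.19 under isotype (95% interval -0.50 to 0.12) and of 0.23 under αACBP (95% interval -0.08 to 0.54), and neither passed the test.

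Stat5b, the gene of the transcription factor that carries the signal to the nucleus (chr11:100671556-100741589, minus strand), passed the test in no comparison. Its level was 92, 94, 99, 107 and 82 CPM in the livers of the Isotype + Vehicle group and 85, 84, 67, 89 and 47 CPM in those of the Isotype + CORT group. It was 63, 80, 67, 78 and 83 CPM with αACBP + Vehicle and 96, 96, 104, 108 and 80 CPM with αACBP + CORT. The livers of Isotype + Vehicle and αACBP + CORT thus lay higher than those of Isotype + CORT and αACBP + Vehicle, with some overlap. The log2 fold change for CORT was -0.35 under isotype (95% interval -0.68 to -0.02) and 0.39 under αACBP (95% interval 0.06 to 0.71). The interaction, which tests whether these responses differ, was 0.74 (standard error 0.23, adjusted p = 0.175) and was not called over 7 other settings, whose adjusted p lay between 0.0691 and 0.290. Of the words of its transcript, 3.54% are shared with Stat5a, which had between 276 and 590 counts in a liver.

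Cish, the gene of a STAT5 target that inhibits the signal (chr9:107173225-107179983, plus strand), was lowest in the Isotype + Vehicle group. There it was at 10.7, 13.5, 24.7, 3.76 and 8.99 CPM in livers 1 to 5. In the αACBP + Vehicle group it was at 60.03, 28.6, 24.2, 25.2 and 50.9 CPM. All but liver 3 of the control group lay below every liver of the antibody group. The level rose with αACBP without CORT by 1.61 on the log2 scale with a standard error of 0.45, which is 3.06-fold (adjusted p = 0.0436). This call, too, stood near the threshold. Over 8 other settings the adjusted p lay between 0.00191 and 0.0862, with 7 calls. It was lost when livers 1, 2, 4 or 5 of the Isotype + Vehicle group or livers 1, 2 or 5 of the αACBP + Vehicle group were left out, at an adjusted p of up to 0.128. Without the αACBP + Vehicle liver that stood apart it was 1.48 (adjusted p = 0.110). In the Isotype + CORT group Cish was at 54.1, 22.9, 26.1, 24.1 and 29.8 CPM and in the αACBP + CORT group at 30.9, 13.2, 60.7, 39.3 and 23.2 CPM. Against Isotype + Vehicle, CORT alone gave 1.34 on the log2 scale (adjusted p = 0.116), and both treatments together gave 1.44 (adjusted p = 0.299), each with a standard error of 0.45. Without liver 3 of the Isotype + Vehicle group the first of these was 1.76 and passed (adjusted p = 0.0416). DESeq2's Wald test called both (adjusted p = 0.0185 and 0.0338). The interaction was -1.52 (95% interval -2.82 to -0.21, adjusted p = 0.360). Exons of Gm17041 and other genes on the opposite strand cover 26.3% of the exon bases of Cish. Gm17041 had between 0.267 and 0.900 counts for each count of Cish, and since the strand setting of the counting is not given, part of the counts cannot be told apart.

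Socs2, the gene of another inhibitor that STAT5 induces (chr10:95219523-95253929, minus strand), varied more between mice than between groups. It ranged from 15.4 to 44.3 CPM in the Isotype + Vehicle group, from 12.1 to 59.6 CPM with CORT, from 18.9 to 63.6 CPM with αACBP and from 12.6 to 49.7 CPM with both. The group means lay between 27.0 and 39.1 CPM. No comparison passed the test, and the 95% interval for CORT under isotype, from -1.17 to 0.71, was wide.

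Igf1 (chr10:87693642-87772904, plus strand) and Igfals (chr17:25084971-25100984, plus strand) encode the growth factor and its carrier subunit. Igf1 was at 878 ± 110 CPM in the Isotype + Vehicle group, 844 ± 162 CPM with CORT, 823 ± 180 CPM with αACBP and 1030 ± 146 CPM with both (SD, n = 5 each). It passed the test in no comparison. For CORT under isotype the log2 fold change was -0.06, with a 95% interval from -0.42 to 0.31. Liver 5 of the Isotype + CORT group, at 561 CPM, lay below the other 4 of its group, which were between 873 and 965 CPM.
Igfals was at 83.4, 98.7, 75.6, 126 and 83.0 CPM in livers 1 to 5 of the αACBP + Vehicle group and at 205, 164, 160, 146 and 113 CPM in those of the αACBP + CORT group. Apart from liver 4 of the first and liver 5 of the second, the groups did not overlap. The difference of 0.76 on the log2 scale had a standard error of 0.21 and did not pass (adjusted p = 0.114). It passed without liver 5 of the αACBP + CORT group (0.86, adjusted p = 0.0382) and in DESeq2's Wald test (0.73, adjusted p = 0.0378). Under isotype Igfals was at 109 ± 33.1 CPM with vehicle and 128 ± 28.7 CPM with CORT (SD, n = 5 each), a log2 fold change of 0.24 (95% interval -0.19 to 0.67). Exons of Gm41549 on the opposite strand cover 17.1% of the exon bases of Igfals.

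**Figure D2:**
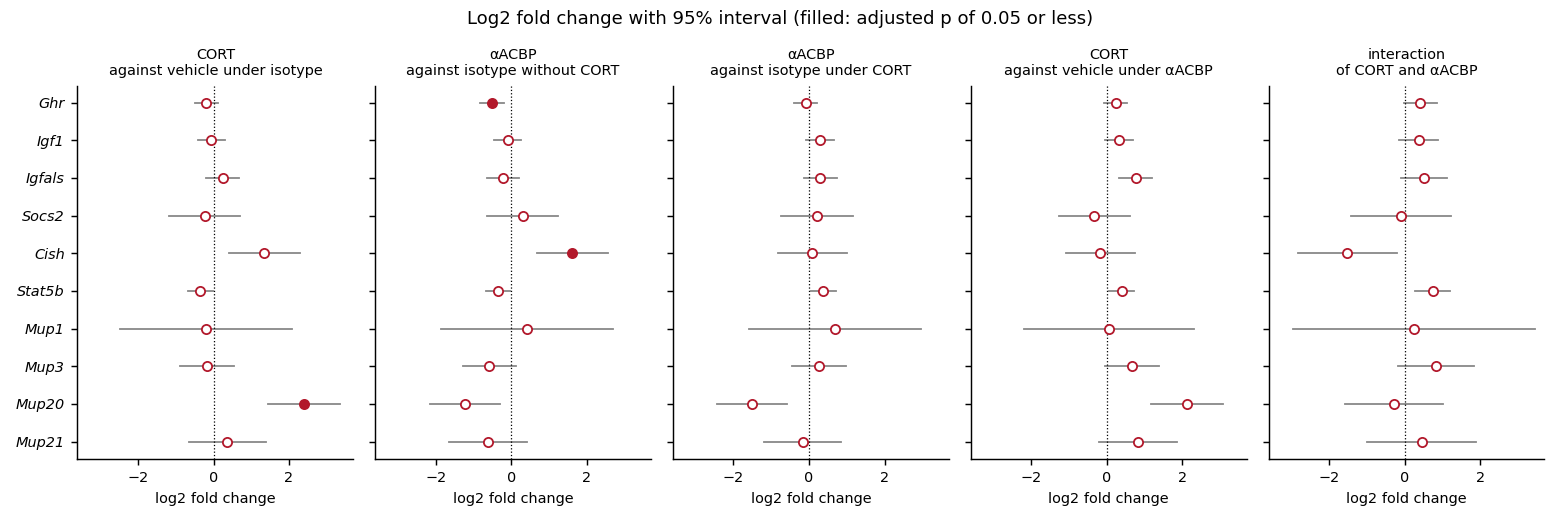
Log2 fold change of each gene with its 95% interval in 4 comparisons of groups and in the interaction of both treatments, from 1 model of all 20 livers. Filled points mark the 3 calls at an adjusted p of 0.05 or less, which are Mup20 with CORT under isotype (2.40) and Ghr (-0.51) and Cish (1.61) with αACBP without CORT.

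Mup20 (chr4:61968464-61972395, minus strand) showed the largest difference of the 10 genes. In the Isotype + Vehicle group it was at 32.1, 45.8, 30.1, 25.1 and 59.2 CPM in livers 1 to 5. In the Isotype + CORT group it was at 220, 319, 61.8, 168 and 249 CPM. Every CORT liver lay above every vehicle liver, although liver 3 was only just above. The level rose from 38.5 ± 13.9 to 204 ± 96.4 CPM (SD, n = 5 each), by 2.40 on the log2 scale with a standard error of 0.45, or 5.29-fold (edgeR's adjusted p = 0.00728). An exact permutation test of these 5 against 5 livers gave p = 0.00794, which is the smallest it can give (two-sided, not adjusted, 1 of 50 such tests). The call held in all 8 other settings, at an adjusted p between 1.03e-05 and 0.0124, and with each of the 10 livers left out, at a log2 fold change between 2.17 and 2.63. 
With αACBP, Mup20 was at 21.4, 21.3, 18.7, 13.9 and 6.71 CPM in the vehicle group and at 63.8, 115, 90.7, 66.1 and 21.7 CPM in the CORT group. These groups did not overlap either, since the lowest CORT liver was at 21.7 CPM and the highest vehicle liver at 21.4 CPM. The log2 fold change for CORT was 2.13 (standard error 0.45), and its adjusted p of 0.0559 lay just outside the threshold. It passed in 3 of 8 other settings, whose adjusted p lay between 0.000787 and 0.0781, and it passed without liver 5 of the αACBP + CORT group (2.36, adjusted p = 0.00397). The interaction was -0.28 with a 95% interval from -1.57 to 1.01, so that a difference between these responses to CORT was not detectable.
The antibody groups lay lower than the isotype groups. Under CORT the means were 71.5 ± 34.9 and 204 ± 96.4 CPM (SD, n = 5 each), which was -1.51 on the log2 scale with a standard error of 0.44 (adjusted p = 0.120). Without CORT they were 16.4 ± 6.22 and 38.5 ± 13.9 CPM (SD, n = 5 each), which was -1.23 on the log2 scale with a standard error of 0.44 (adjusted p = 0.113), and these groups did not overlap. Neither passed edgeR's test. The difference under CORT passed without liver 3 of the Isotype + CORT group (-1.74, adjusted p = 0.0232) and in DESeq2's Wald test (adjusted p = 0.0269). The difference without CORT passed in DESeq2's Wald test (adjusted p = 0.0429) and in a model of these 2 groups alone (adjusted p = 0.0232). The mean of the αACBP + CORT group lay above that of the Isotype + Vehicle group by a log2 fold change of 0.89, with a 95% interval from -0.02 to 1.81.

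None of the other 3 Mup members passed edgeR's test in any comparison. Mup3 (chr4:61947447-62005620, minus strand) took up 90.6% of all counts on the 21 Mup genes of the table. It was at 990 CPM per kb of exon on average, against 43.7 for Mup20, 8.22 for Mup21 and 0.266 for Mup1. Reads that align to several copies may be missing from these counts or be counted for more than 1 gene. The study's counting included features that were not unique, and how such reads were treated is not settled. Of the words of Mup1 and Mup20, 68.6% and 55.6% are shared, but 0% of those of Mup3 are. The share of Mup3 and the order of these levels hold for the reads that were counted only. Its level was 2330 ± 645 CPM in the Isotype + Vehicle group, 2070 ± 1040 CPM with CORT, 1560 ± 375 CPM with αACBP and 2480 ± 917 CPM with both (SD, n = 5 each). The log2 fold change for CORT under isotype was -0.17 (95% interval -0.88 to 0.54). Liver 5 of the Isotype + CORT group was the lowest of all livers in Mup3, at 529 CPM, and was among the highest in Mup20, at 249 CPM. In that liver Mup20 took up 30.6% of the Mup counts, against 3.58% to 10.8% in the other 4 livers of its group and 1.25% to 1.81% in the Isotype + Vehicle group.
Mup21 (chr4:62066056-62069175, minus strand) ranged from 2.01 to 18.4 CPM over all livers over groups that overlapped. Its log2 fold change for CORT under isotype was 0.37 (95% interval -0.65 to 1.40). Mup1 (chr4:60453986-60458057, minus strand) had between 2 and 19 counts in a liver and lay near the floor. For CORT under isotype its 95% interval ran from -2.48 to 2.09, so that no response could be read from these counts. Of its transcript words, 68.6% are shared with other Mup genes, and the part of this in its low counts was not tested.
The summed Mup counts were 0.244% ± 0.0599 of all counts on genes in the Isotype + Vehicle group, 0.222% ± 0.103 with CORT, 0.196% ± 0.0379 with αACBP and 0.258% ± 0.0815 with both (SD, n = 5 each). The groups overlapped.

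**Figure D3:**
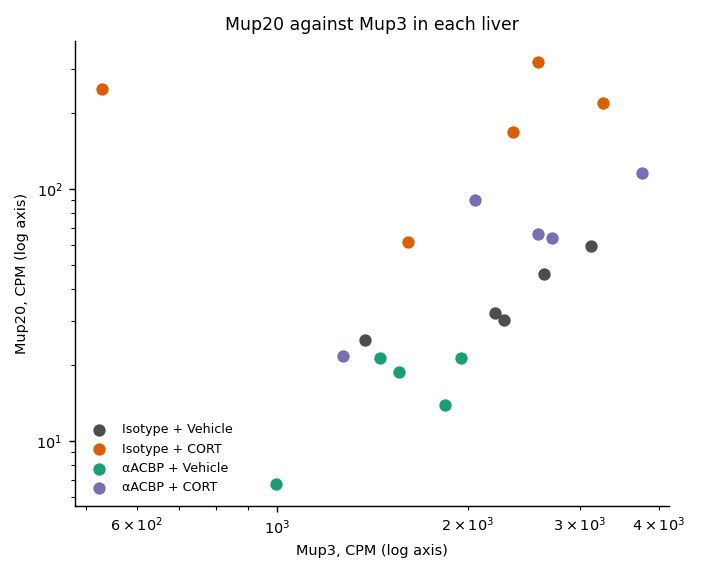
Level of Mup20 against that of Mup3 in CPM on log axes, with 1 point for each of the 20 livers, coloured by group. Of the 5 Isotype + CORT livers, 4 lie highest of all in Mup20, and 1 of these combines 249 CPM of Mup20 with the lowest Mup3 level of 529 CPM.

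Of the 17 Mup genes that are no members, 13 were tested in each of the 6 comparisons. In these, 1 was called, with CORT under isotype, where 1.34% of all genes tested rose and 1.86% fell. Mup18 fell with CORT under isotype from 13.4, 4.53, 12.6, 35.2 and 7.49 CPM to 4.86, 1.20, 1.98, 0.847 and 1.03 CPM in livers 1 to 5. The groups overlapped, since liver 2 of the first lay below liver 1 of the second. On the log2 scale it fell by 2.89 with a standard error of 0.77 (adjusted p = 0.0480), a direction opposite to that of Mup20. Of its transcript words, 85.8% are shared with other Mup genes, and its counts cannot be assigned to Mup18 alone. Mup17, a neighbour with 37.3% of shared words, had a log2 fold change of -1.27 (adjusted p = 0.560) in this comparison and of 2.32 with αACBP without CORT (adjusted p = 0.137). Its highest value, 408 CPM, was in liver 4 of the αACBP + Vehicle group, and its lowest, 0.456 CPM, in liver 4 of the Isotype + CORT group. The 16 Mup genes that share at least 30% of their words held 9.06% of the Mup counts.

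**Figure D4:**
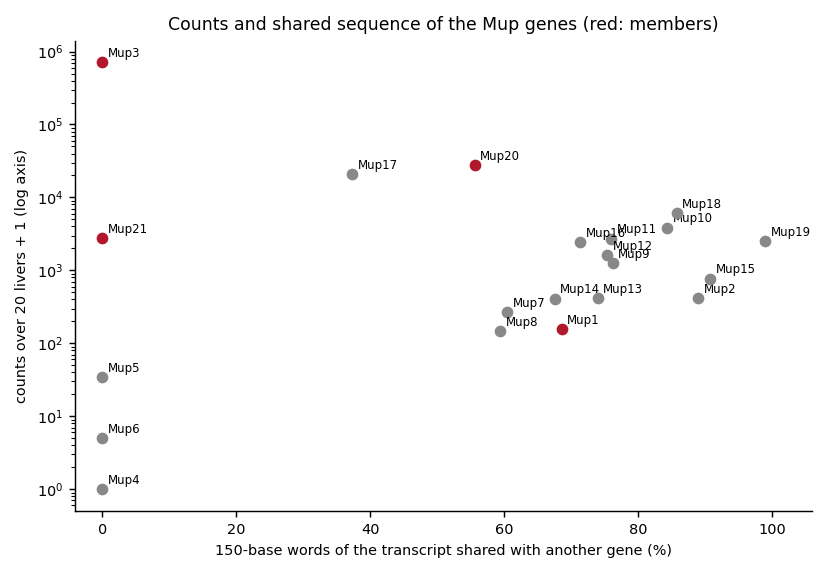
Counts of each of the 21 Mup genes summed over the 20 livers, plus 1 and on a log axis, against the percentage of its 150-base transcript words that another gene shares. Members are red, and Mup3 stands out with 716916 counts and 0% shared words, whereas Mup1 had 156 counts and 68.6% shared words.

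Genes upstream of STAT5B and its inhibitors were then read from lists that were chosen with earlier results of these data known. None of the 12 receptor and signalling genes, which included Prlr, Jak2 and Stat5a, was called in any comparison (edgeR's test), and their median log2 fold change for CORT under isotype was -0.04, against 0 over all genes. DESeq2's Wald test called none of them either, and at an unadjusted p of 0.05 or less 3 passed with CORT under isotype, 3 with αACBP under CORT, 1 with αACBP without CORT and 2 in the interaction, where 15.6%, 12.5%, 20.6% and 10.6% of all genes did. The kinase gene Lyn was at a log2 fold change of -0.68 with CORT under isotype (adjusted p = 0.124). Of 10 negative regulators, 1 fell and 0 rose with CORT under isotype, where 1.86% of all genes fell and 1.34% rose. Sirpa, which encodes an inhibitory receptor of myeloid cells that can bind tyrosine phosphatases, fell from 36.9 ± 11.8 to 18 ± 6.07 CPM (SD, n = 5 each; log2 fold change -1.03, adjusted p = 0.0103). Of the same 10, 1 rose and 0 fell with αACBP without CORT, where 2.78% of all genes rose and 2.36% fell. Socs3, which encodes a cytokine-induced inhibitor, rose from 16.5 ± 4.16 to 30.2 ± 8.59 CPM (SD, n = 5 each; log2 fold change 0.88, adjusted p = 0.0255). None of the 8 transcription factor genes was called by edgeR, and 1 of them, Bcl6, passed at an unadjusted p of 0.05 or less with CORT under isotype and with αACBP without CORT. DESeq2's Wald test called it in both. Bcl6, which encodes a repressor of STAT5 targets, was at 57.9 CPM on average in Isotype + Vehicle, 25.2 CPM in Isotype + CORT and 23.3 CPM in αACBP + Vehicle. The log2 fold changes were -1.20 (adjusted p = 0.123) and -1.31 (adjusted p = 0.0657), and the groups without CORT did not overlap.

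Of 15 genes of the IGF system other than the members, 12 were tested. With CORT under isotype 3 fell and 0 rose, where 1.86% of all genes fell and 1.34% rose. The median log2 fold change of the 12 was -0.29. All 3 that fell encode binding proteins. Igfbp2, whose product binds IGFs in blood, fell from 478 ± 220 to 169 ± 68.0 CPM (SD, n = 5 each; log2 fold change -1.50, adjusted p = 0.0115). Igfbp3, whose product forms the circulating complex with IGF1 and the acid-labile subunit, fell from 38.8 ± 10.9 to 16.1 ± 8.62 CPM (SD, n = 5 each; log2 fold change -1.27, adjusted p = 0.0282). Igfbp7, whose product binds IGFs only weakly, fell from 67.2 ± 12.6 to 41.4 ± 8.48 CPM (SD, n = 5 each; log2 fold change -0.70, adjusted p = 0.0312). In mice without CORT, Igfbp7 fell with αACBP to 37.1 ± 5.39 CPM (SD, n = 5; log2 fold change -0.85, adjusted p = 0.00936), as 1 of 12, where 2.36% of all genes fell. Under CORT, Igfbp2 was at 384 ± 109 CPM with αACBP (SD, n = 5), a log2 fold change of 1.18 against isotype that did not pass (adjusted p = 0.0785). DESeq2's Wald test called Igfbp2 in this comparison, as it did Sirpa, and it called Igfbp7 in the interaction and Igfbp3 between αACBP + CORT and Isotype + Vehicle.

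Markers of other liver cells moved in the same comparisons. Of all genes tested, 1.34% rose and 1.86% fell with CORT under isotype. The shares were 0.635% and 0.324% with αACBP under CORT and 2.78% and 2.36% with αACBP without CORT. With CORT under isotype, 4 of 6 Kupffer cell markers fell (Clec4f, Vsig4, Timd4 and Cd5l), and their summed level was 96.9 to 295 CPM, against 263 to 525 CPM in Isotype + Vehicle. The endothelial marker Pecam1 fell as 1 of 6, and Apob rose as 1 of 8 hepatocyte markers. With αACBP under CORT, 1 of the 6 Kupffer cell markers rose (Clec4f), and the sum was 363 to 499 CPM. With αACBP without CORT, 2 of 5 stellate cell markers fell (Dcn and Lrat), and their sum was 104 to 129 CPM, against 133 to 210 CPM. The sum of the 8 hepatocyte markers was 40700 to 96500 CPM in that group and 70400 to 125000 CPM in Isotype + Vehicle. None of the 5 cholangiocyte, 5 lymphocyte and 3 erythroid markers was called by edgeR, and DESeq2's Wald test called 1 lymphocyte marker with CORT under isotype and 1 cholangiocyte marker with αACBP without CORT. The 5 lymphocyte markers summed to 11.7 to 22.4 CPM in Isotype + Vehicle and 1.16 to 10.4 CPM in Isotype + CORT. The part of these cells in the changes of Mup20, Ghr, Cish, Sirpa and the Igfbp genes was not tested.

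Growth hormone pulses set the sex difference of many liver genes, and lists of such genes were read as a second measure of the axis in these female livers. Of 19 male-biased genes, 15 were tested. With CORT under isotype, 1 rose and 3 fell, where 1.34% of all genes rose and 1.86% fell. Their median log2 fold change was -0.12. At an unadjusted p of 0.05 or less (edgeR's test) 5 of the 15 passed, where 15.6% of all genes did. Cyp2d9, a male-biased cytochrome, rose from 40.0 ± 9.62 to 182 ± 117 CPM (SD, n = 5 each; log2 fold change 2.18, adjusted p = 0.00789), in the direction of Mup20. C6, a complement gene, fell by 1.30, Selenbp2 by 2.11 and Nudt7 by 1.01 on the log2 scale (adjusted p = 0.00319, 0.0283 and 0.00654 in this order). With αACBP under CORT, C6 rose by a log2 fold change of 1.31 (adjusted p = 0.00720), as 1 of 15, where 0.635% of all genes rose. With αACBP without CORT, Cyp7b1, an enzyme of oxysterol and steroid breakdown, fell from 15.5 to 7.30 CPM (log2 fold change -1.09, adjusted p = 0.0332). It was 1 of 15, where 2.36% of all genes fell.
All 22 female-biased genes were tested. With CORT under isotype, 1 rose and 2 fell, where 1.34% of all genes rose and 1.86% fell. Their median log2 fold change was 0.08. At an unadjusted p of 0.05 or less (edgeR's test) 12 of the 22 passed, where 15.6% of all genes did. With αACBP under CORT 6 passed this cut and with CORT under αACBP 5, where 12.5% and 12.7% of all genes did. Cyp2b10, which is also induced by drugs through the receptor CAR, rose by a log2 fold change of 2.07 (adjusted p = 0.0467), with Isotype + CORT livers between 9.88 and 145 CPM. Fmo2 fell by 0.82 and Atp6v0d2 by 1.73 on the log2 scale (adjusted p = 0.0484 and 0.00501). In mice without CORT, Cyp2c40 fell by 1.00 on the log2 scale with αACBP (adjusted p = 0.0365), where 2.36% of all genes fell. DESeq2's Wald test called 5 male-biased and 7 female-biased genes with CORT under isotype, in place of 4 and 3, among 949 genes in all. Cyp2d9, Cyp2b10, Cyp2c40 and Selenbp2 belong to families of close copies, and their counts may include reads of relatives.

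**Figure D5:**
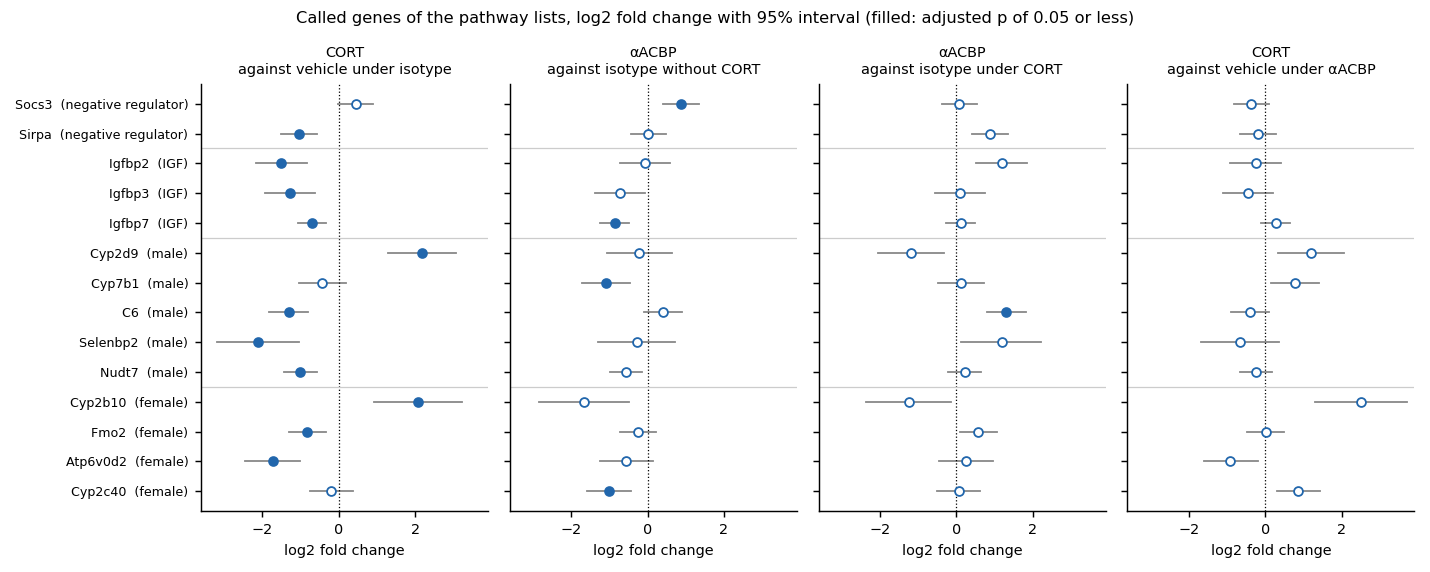
Log2 fold change with its 95% interval of the 14 genes of the pathway lists that were called in at least 1 comparison, in 4 comparisons, where filled points mark an adjusted p of 0.05 or less. The 3 Igfbp genes lie below 0 with CORT under isotype, whereas male-biased and female-biased genes lie on both sides of 0.

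The genes whose log2 CPM followed each of 3 members most closely over the 20 livers were read out as a description, among 13863 genes with a mean of at least 1 CPM. The livers share their treatment groups, so these values do not separate mice within a group. For Mup20 they were Serinc3 (Pearson r = 0.95), Ugt2b35 (0.93), Chpt1 (0.93), Ugt2b5 (0.92) and Apob (0.92). For Igf1 they were Tymp (0.74), B3gat3 (0.72), Gm27463 (0.71), Sult2a8 (0.71) and Srgap3 (0.70). For Socs2 they were Naa35 (0.78), Megf11 (0.76), Zfp160 (0.73), Gm2673 (0.71) and Plcd1 (0.71). Among the members, Mup20 was at r = 0.28 with Mup3, 0.44 with Mup21 and 0.11 with Igf1, whereas Igf1 was at 0.68 with Mup3 and 0.60 with Stat5b. Ghr was at r = -0.61 with Cish.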

How the data were processed

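The deposited values were raw counts of reads per gene for 20 mouse livers, 5 per group. The authors aligned paired reads of 150 bases with HISAT2 and counted them with HTSeq in union mode, with features that were not unique included. The labels name mm10 and the study's methods GRCm39, and the annotation release and strand setting are not given in the sources used here. HTSeq's own lines outside genes were left out of library sizes and tests, of which reads on no feature made up 42.3% to 45.2% of all lines of a liver and not uniquely aligned ones 5.92% to 10.6%. Positions, exons and transcripts came from GRCm39 (GENCODE M39), and 0 columns of per-sample values were left unused.

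Genes that passed edgeR's filterByExpr were fitted in 1 model of the 4 groups with edgeR 4.0.16 (R 4.3.3, TMM, robust quasi-likelihood test), and p-values were adjusted by Benjamini-Hochberg over all 16071 genes. Genes were called at an adjusted p of 0.05 or less, without a limit on fold. Intervals are at 95%. Exact permutation tests used log2(CPM + 1) and were two-sided. Alternatives were DESeq2 1.42.0 (Wald test, size factors), other filters, library sizes and call rules, a model of only the groups compared, a block on the replicate number and leaving out each liver. The procedure was tested on simulated data. All members are named, with the called genes of the Mup family and the pathway lists and the 5 genes most like Igf1, Socs2 and Mup20. Mup17, Lyn and Bcl6 were added after their values were seen. The members and lists were chosen with earlier results of these data known. Replicates are separate mice by the labels. Replicates of 1 group all differed by more than counting noise (40 pairs).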

Additional observations from a re-analysis of the deposited data

Results flagged for a closer look

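Of 40 combinations of a gene and a group of 5 livers, 4 had 1 liver whose gap to the nearest of the others exceeded 0.71 of the range of the group (Dixon's critical value at 95%). Chance flags about 1 in 20 groups, which is 2 of 40. Igf1 was at 561 CPM in liver 5 of the Isotype + CORT group, where the nearest liver was at 873 CPM. The same liver had the lowest Mup3 level of all. Cish was at 54.1 CPM in liver 1 of the Isotype + CORT group, where the nearest liver was at 29.8 CPM. Mup1 was at 0.847 CPM in liver 4 of the Isotype + CORT group, with the nearest at 0.274 CPM, and at 1.03 CPM in liver 5 of the αACBP + CORT group, with the nearest at 0.473 CPM. The values of Mup1 rest on 19 counts or fewer.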

How the results depend on the processing

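Besides leaving out single livers, 579 values of single members were recomputed under other settings, of which 551 kept their direction and their side of the threshold, 8 lost a call, 15 gained one and 5 changed sign. The number of members called was 2, 1, 2 and 1 by DESeq2's Wald test with CORT under isotype, with αACBP under CORT, with CORT under αACBP and between αACBP + CORT and Isotype + Vehicle, in place of 1, 0, 0 and 0. With an unadjusted p and a log2 fold change of at least 1 these numbers were 2, 1, 1 and 1, and it was 1 in the interaction in place of 0. With CORT under αACBP, 1 member was called with at least 10 counts in every liver, among 71 genes in place of 49. With library sizes without any Mup gene 1 was called, among 37 genes. With αACBP without CORT, DESeq2's Wald test called 3 members in place of 2, among 1585 genes in place of 826. The 2 calls fell to 0 with no filter beyond 1 count, among 706 genes. They fell to 1 with library sizes without the 20 most abundant genes, among 880, and with those without any Mup gene, among 974. An added fold limit left 1 call among 209 genes, and the replicate block left 1 among 567. The cause was not tested. The library sizes in these alternatives replaced TMM, so that they change the scaling as a whole.

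The values that changed sign lay near 0. With library sizes without any Mup gene, Mup1 was at -0.02 with CORT under αACBP and Igf1 at 0.02 with αACBP without CORT, and the median of all genes was -0.12 and 0.10 in these comparisons. With the replicate block, Mup3 and Mup21 were at -0.06 and -0.04 between αACBP + CORT and Isotype + Vehicle, and the interaction of Socs2 was at 0. The block on the replicate number put Ghr at -0.52 with αACBP without CORT (adjusted p = 0.0783). The deviations of livers with the same number from their group means correlated at r = -0.0999 to 0.0969 over 30 pairs. These values run over all genes tested and cannot show a pairing that touches only some genes.

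With 1 liver left out, the number of members called ranged from 1 to 2 with CORT under isotype, 0 to 1 with αACBP under CORT, 0 to 2 with CORT under αACBP and 0 to 2 with αACBP without CORT, and was 0 throughout in the other comparisons, where the calls over all genes ranged from 1 to 25 between αACBP + CORT and Isotype + Vehicle and from 6 to 102 in the interaction. Of 700 such values 33 changed sign. Those that crossed 0 with CORT under isotype ranged from -0.11 to 0.06 for Igf1, -0.84 to 0.16 for Mup1 and -0.40 to 0.07 for Mup3. With αACBP under CORT they were -0.02 to 0.73 for Socs2, -0.23 to 0.39 for Cish and -0.57 to 0.15 for Mup21. With CORT under αACBP they were -0.50 to 0.05 for Cish and -0.28 to 0.33 for Mup1. Between αACBP + CORT and Isotype + Vehicle they were -0.26 to 0.17 for Socs2, -0.02 to 0.09 for Stat5b, -0.11 to 0.26 for Mup3 and -0.20 to 0.55 for Mup21, and in the interaction -0.33 to 0.43 for Socs2 and -0.10 to 0.90 for Mup1.

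Over all genes, DESeq2's Wald test called 949, 430, 306, 1585, 128 and 240 genes with CORT under isotype, αACBP under CORT, CORT under αACBP, αACBP without CORT, between αACBP + CORT and Isotype + Vehicle and in the interaction, against 514, 154, 49, 826, 13 and 23. In the same order an unadjusted p with the fold limit gave 890, 520, 395, 537, 223 and 791. An adjusted p with the fold limit gave 312, 96 and 209 for CORT under isotype, αACBP under CORT and αACBP without CORT. A model of only the groups compared gave 319, 28 and 135 for CORT under isotype, αACBP under CORT and αACBP + CORT against Isotype + Vehicle. The interaction had 35, 53 and 61 calls with DESeq2's size factors, without the filter and with at least 10 counts, and αACBP + CORT against Isotype + Vehicle had 21 with at least 10 counts and 7 with library sizes without any Mup gene. Of the called genes, 41.8% were higher with CORT under isotype, against 30.4% and 28.1% with library sizes without the 20 most abundant genes and without any Mup gene. With αACBP without CORT these shares were 54.1% with TMM and 70.4% without any Mup gene, and for αACBP + CORT against Isotype + Vehicle 53.8% with TMM, 43.8% with DESeq2's size factors and 85.7% without any Mup gene. A call below an adjusted p of 0.05 in 5 against 5 livers rests on the spread between mice, and the low counts limit Mup1.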
